A study of Mus musculus with 12 samples.

Results

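The cytoplasmic ribosomal protein genes were followed in mouse lung as 82 protein-coding genes out of 54532 rows of the count table. They were chosen by symbol alone: Rpl or Rps with a number and an optional letter, together with Rplp0, Rplp1, Rplp2 and Rpsa, and without Rpl29. The list holds 47 large-subunit genes, 32 small-subunit genes and 3 genes of the stalk proteins. A row was found for every gene, and 81 passed the filter on low counts. The exception was Rpl10l, with no count in any library. For summaries per library, 77 genes with a mean of at least 10 CPM (counts per 1000000 counts in the library) were used, which left out Rpl10l, Rpl39l, Rpl3l, Rpl24 and Rps10.

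Poly(A) RNA of lung was sequenced in 12 libraries, 3 in each of 4 groups. All mice carried Cc10-Cre, in which the promoter of Cc10, the secretory protein of airway club cells, drives the Cre recombinase. WT_PBS mice carried Cc10-Cre and received PBS, and WT_CRE mice carried Cc10-Cre and received a treatment labelled CRE. CKO_PBS and CKO_CRE mice carried Cc10-Cre and Rhoafl/fl and received PBS or CRE. CRE is not spelled out in the labels, which list it as a treatment, apart from the Cc10-Cre of the genotype. Ages are not given in the labels, nor is it stated whether replicates are separate animals. P-values therefore measure the spread between these libraries. The series title concerns allergic airway inflammation and RhoA in club cells, which are a small part of the tissue sampled here.

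Each ribosome is built from a small and a large subunit, and nearly every protein in them is encoded by 1 gene that has many processed pseudogene copies in the mouse genome. The mRNAs of these genes begin with a run of pyrimidines, the 5′ terminal oligopyrimidine (TOP) tract, through which the mTOR pathway and LARP1 control their translation. Cells that grow and divide, such as activated lymphocytes, make more ribosomes.

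The start of these genes was read from RefSeq promoter windows (GRCm38.p6), which matched 63 of the 82 genes. A run of at least 8 C or T on the sense strand within 50 bases of the annotated start was present in 82.5% of the 63 genes and in 39.3% of all 27025 genes in the table. The sequences below are shown because they belong to 6 of the genes whose responses are described next. Each covers 45 bases before to 25 bases after the annotated start, 5′ to 3′, with the longest pyrimidine run in capitals.
Rpl13a, chr7:45128721-45128790, minus strand: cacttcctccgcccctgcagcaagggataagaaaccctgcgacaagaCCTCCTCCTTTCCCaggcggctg
Rps26, chr10:128626482-128626551, minus strand: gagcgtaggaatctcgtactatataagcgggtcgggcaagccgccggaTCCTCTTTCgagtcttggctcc
Rplp2, chr7:141447606-141447675, plus strand: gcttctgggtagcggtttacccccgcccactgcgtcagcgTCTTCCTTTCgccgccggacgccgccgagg
Rpl35, chr2:39005107-39005176, minus strand: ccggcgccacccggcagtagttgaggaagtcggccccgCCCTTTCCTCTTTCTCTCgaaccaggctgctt
Rpl41, chr10:128549144-128549213, minus strand: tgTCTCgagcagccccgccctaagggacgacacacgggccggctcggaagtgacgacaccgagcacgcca
Rps2, chr17:24720018-24720087, plus strand: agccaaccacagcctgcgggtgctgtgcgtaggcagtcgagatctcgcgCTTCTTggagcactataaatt

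Rpl13a, Rps26, Rplp2 and Rpl35 hold runs of 14, 9, 10 and 18 pyrimidines in these windows, whereas the longest runs of Rpl41 and Rps2 in them are 4 and 6. Both of these genes also hold a run of at least 8 within 50 bases of the start that is not wholly inside the stretch printed. Other motifs were searched as exact letters on both strands in windows of 250 bases before to 50 bases after the start. CCGGAAG, the core bound by ETS factors, was in 41.3% of the 63 genes and 9.93% of all genes. AAGATGGC, the YY1 core, was in 9.52% and 3.19%. TATAAA was in 11.1% and 15.7%, GGGCGG in 61.9% and 38.2%, and CACGTG in 9.52% and 8.09%. A match describes the letters in the window and not a bound site. Among the 58 matched genes at 10 CPM or more, the 49 with a pyrimidine run had a median log2 response to CRE in WT lung of 0.70, and the 9 without had 0.80.

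Library totals ran from 16250674 to 21559210 counts. Rhoa, the floxed gene, was at 474 to 494 CPM in WT_PBS, 399 to 480 in CKO_PBS, 502 to 534 in WT_CRE, with 476 to 534 in CKO_CRE, and no difference between the genotypes passed the test (adjusted p of 1 under PBS and 0.728 under CRE, edgeR). Sftpc, the surfactant gene of alveolar type 2 cells, was at 8651 to 16683 CPM, and Scgb1a1, the gene of Cc10, at 5.79 to 46.5 CPM. Genes of the Y chromosome were read in all 3 WT_PBS libraries and were at or near 0 in 1 CKO_PBS, 2 WT_CRE and 2 CKO_CRE libraries, taken as female. In a tissue sample, fewer cells of a type and less RNA per cell cannot be told apart.

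The 82 genes together took 2.18%, 2.20% and 2.22% of the counts in the 3 WT_PBS libraries and 2.01%, 2.20% and 1.94% in CKO_PBS. They took 3.66%, 3.64% and 3.05% in WT_CRE and 2.03%, 3.47% and 2.36% in CKO_CRE. All WT_CRE libraries lay above all PBS libraries, while CKO_CRE replicate 1 lay in the PBS range and replicate 2 in the WT_CRE range. The mean share went from 2.20% ± 0.0177 to 3.45% ± 0.347 with CRE in WT, and from 2.05% ± 0.131 to 2.62% ± 0.753 in CKO (SD, n = 3).

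**Figure D1:**
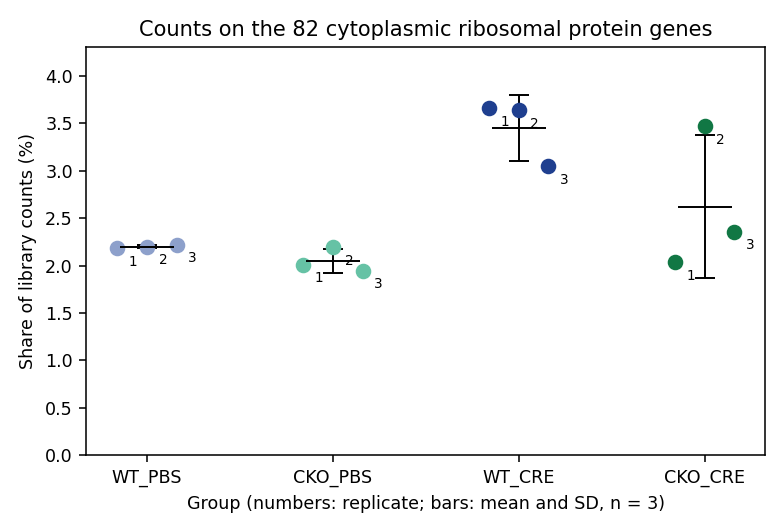
Share of each library's counts (%) on the 82 cytoplasmic ribosomal protein genes, by group. Numbered points are replicates, and the line and bars are the mean and SD of 3 libraries. WT_CRE lies between 3.05% and 3.66%, above every PBS library, and CKO_CRE is spread from 2.03% to 3.47%.

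In WT lung the ribosomal protein genes rose together under CRE. Of 81 tested genes, 71 were higher and none lower in WT_CRE than in WT_PBS at an adjusted p below 0.05 (edgeR quasi-likelihood test, Benjamini-Hochberg adjustment over 17473 genes), against 28.6% of all tested genes higher and 28.4% lower. At an unadjusted p below 0.05, 75 were higher and 0 lower, against 31.2% and 30.9%. The median log2 fold change of the 81 was 0.70, a 1.62-fold rise, while that of all tested genes was 0.01. The log2 fold change was above 0 for all 81, against 50.6% of all tested genes. All 3 WT_CRE libraries lay above all 3 WT_PBS libraries for 77 of the 81, a separation seen in 32.3% of all tested genes, and none was separated in the lower direction, against 36.1%. With sex as a covariate 48 were higher, against 22.9% of all tested genes, and the median was 0.57. WT_CRE replicate 1, a male library like those of WT_PBS, had a median log2 level 0.79 above the WT_PBS mean over the 77 genes.

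Both subunits and the stalk took part, and the difference between them was not tested. Of the large-subunit genes 41 of 46 were called higher, with a median log2 change of 0.63, and of the small-subunit genes 27 of 32, with a median of 0.74. The 3 stalk genes, whose proteins recruit the elongation factors to the ribosome, were all called.

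Rps2 (chromosome 17, 24718116 to 24721929, gene positions here and below from GENCODE M21 on GRCm38), a small-subunit protein near the mRNA entry site, had the smallest adjusted p. It was at 524, 535 and 479 CPM in WT_PBS, 503, 544 and 477 in CKO_PBS, 1059, 1126 and 958 in WT_CRE, with 722, 1121 and 786 in CKO_CRE. Both CRE groups lay above both PBS groups in every library. The log2 change was 1.07 ± 0.16 (SE) in WT (adjusted p = 0.000184) and 0.80 ± 0.15 in CKO (adjusted p = 0.00238). Rps2 has 9 near-identical pseudogenes, so its own share of these reads is uncertain.

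Rpl13a (chromosome 7, 45125558 to 45128761), a large-subunit protein also known for a role in silencing inflammatory mRNAs, showed the largest log2 change of the genes at 10 CPM or more. It was at 12.3, 12.7 and 13.6 CPM in WT_PBS, 12.6, 16.3 and 11.3 in CKO_PBS, 29.3, 31.3 and 28.1 in WT_CRE, with 17.0, 29.0 and 15.3 in CKO_CRE. WT_CRE stood apart from WT_PBS, and CKO_CRE overlapped CKO_PBS through replicate 3. The log2 change was 1.24 ± 0.22 in WT (adjusted p = 0.000609) and 0.62 ± 0.22 in CKO (adjusted p = 0.0393). The CKO value fell to 0.27 without CKO_CRE replicate 2 (adjusted p = 0.183), and the CKO call was lost on leaving out any of 9 of the 12 libraries (adjusted p of 0.0511 to 0.183). Rpl13a, Rpl24 and Rps10 carry few counts, and each shares exons on its strand with another gene model that has no count in these libraries.

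Rpl41, the smallest ribosomal protein, rose from 362 ± 40.4 to 766 ± 102 CPM in WT (log2 1.11 ± 0.21, adjusted p = 0.00101). Its near-identical non-coding row, Gm10076, was at 64.7, 68.0 and 68.7 CPM in WT_PBS and 124, 127 and 119 in WT_CRE. How reads were divided between these rows was not tested. Rps26 rose from 185 ± 6.23 to 388 ± 32.2 CPM (log2 1.10 ± 0.22, adjusted p = 0.00136). Rpsa, a small-subunit protein also known as the laminin receptor, rose from 548 ± 20.04 to 1061 ± 111 CPM (log2 0.99 ± 0.19, adjusted p = 0.00101). For each of these 3 genes the WT_CRE libraries lay above those of WT_PBS.

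Of the stalk genes, Rplp0 was at 759, 778 and 768 CPM in WT_PBS, 675, 762 and 667 in CKO_PBS, 1453, 1448 and 1329 in WT_CRE, with 838, 1301 and 936 in CKO_CRE. Its log2 change was 0.91 ± 0.15 in WT (adjusted p = 0.000413) and 0.56 ± 0.15 in CKO (adjusted p = 0.0124), with no overlap between the treatments in either genotype. Rplp2 rose by log2 1.04 ± 0.23 in WT (adjusted p = 0.00215) and had a difference of 0.55 ± 0.22 in CKO (adjusted p = 0.0708). The plot of the 77 genes by library shows the levels gene by gene.

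**Figure D2:**
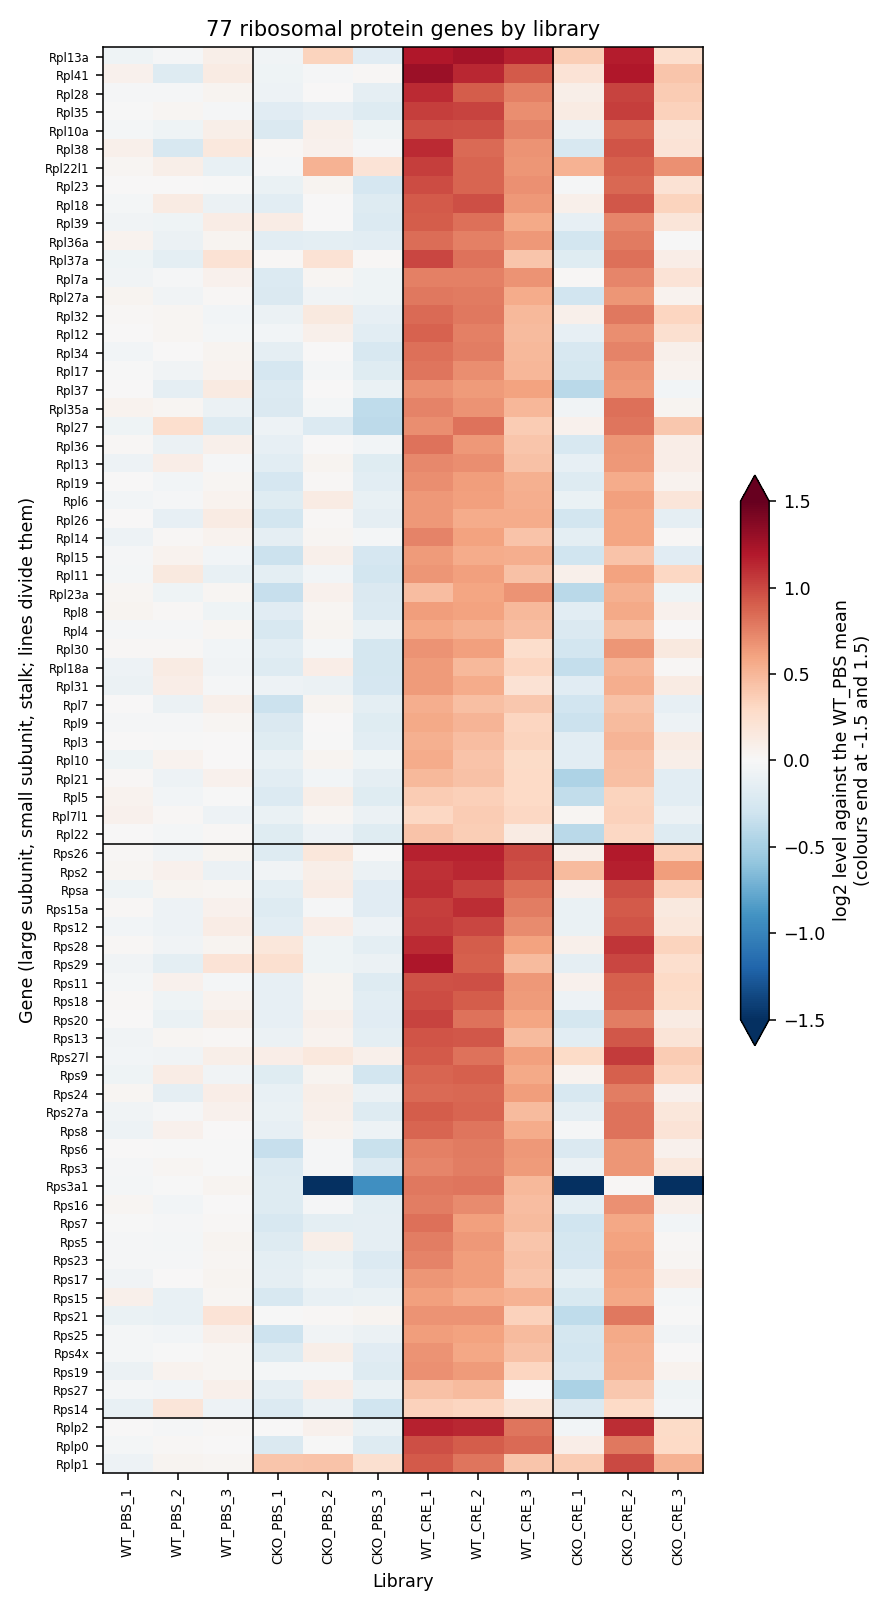
Log2 level of 77 ribosomal protein genes (rows) in 12 libraries (columns) against the WT_PBS mean, scaled to library size with 0.5 CPM added. Rows are ordered within large subunit, small subunit and stalk by their WT_CRE level. WT_CRE and CKO_CRE replicate 2 are raised across most rows, CKO_CRE replicates 1 and 3 less so, and Rps3a1 is low in 4 CKO libraries.

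Some of the proteins are also known for roles outside the ribosome or in disease. Rps6, the S6 kinase target in the small subunit, rose by log2 0.73 ± 0.18 in WT (adjusted p = 0.00504). Rps19, mutated in Diamond-Blackfan anaemia, rose by 0.56 ± 0.17 (adjusted p = 0.0136), a call lost without WT_PBS replicate 1 (0.51, adjusted p = 0.0523) or WT_CRE replicate 1 (0.49, adjusted p = 0.0538). Rps27a, made as a fusion with ubiquitin, rose by 0.76 ± 0.20 (adjusted p = 0.00636), and Rps3, which also has a DNA repair activity, by 0.71 ± 0.16 (adjusted p = 0.00224). Rpl5 and Rpl11 bind MDM2 together with 5S RNA. Rpl11 rose by 0.58 ± 0.13 (adjusted p = 0.00322) and Rpl5 had a log2 difference of 0.35 ± 0.15 (adjusted p = 0.0724). Leaving out CKO_CRE replicate 1 or 2, which left these differences nearly as they were, brought Rpl5, Rpl21 and Rpl22 past the threshold, with adjusted p of 0.0346, 0.0225 and 0.0466 without replicate 1 and 0.00552, 0.00178 and 0.00748 without replicate 2. Rps14 passed without replicate 2 (adjusted p = 0.0259). The other tested genes without a call in WT were Rpl21, Rpl22, Rpl3l, Rpl39l, Rps3a1, Rps10, Rps14, Rps21 and Rps27, all with a log2 difference above 0.

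Several ribosomal proteins have a second gene. Rpl22l1 (chromosome 3), the paralog of Rpl22, was at 11.4, 11.7 and 10.1 CPM in WT_PBS, 11.1, 15.96 and 12.7 in CKO_PBS, 22.4, 20.6 and 17.0 in WT_CRE, with 16.4, 20.5 and 17.9 in CKO_CRE. It rose by log2 0.89 ± 0.16 in WT (adjusted p = 0.000688) and 0.47 ± 0.16 in CKO (adjusted p = 0.0345), with no overlap in either genotype. The CKO call was lost without CKO_PBS replicate 1 (0.35, adjusted p = 0.128), CKO_PBS replicate 3 (0.45, adjusted p = 0.098), CKO_CRE replicate 2 (0.37, adjusted p = 0.116) or CKO_CRE replicate 3 (0.48, adjusted p = 0.0607). Rpl22 itself had a log2 difference of 0.32 ± 0.15 in WT (adjusted p = 0.0924). The difference between the 2 genes was not tested.

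Rps27l rose by log2 0.79 ± 0.17 in WT (adjusted p = 0.00181), and its paralog Rps27 had a difference of 0.32 ± 0.19 (adjusted p = 0.159). Rpl7 and Rpl7l1 rose by 0.47 ± 0.17 (adjusted p = 0.0292) and 0.34 ± 0.10 (adjusted p = 0.0139). Rpl3 rose by 0.45 ± 0.14 (adjusted p = 0.0185), while Rpl3l, its striated muscle form, was under 1 CPM in every library. Rpl10, whose copy Rpl10l had no counts, rose by 0.43 ± 0.14 (adjusted p = 0.0216), and Rps4x by 0.57 ± 0.17 (adjusted p = 0.014). The WT calls of these smaller changes were sensitive to single libraries. That of Rpl7 was lost on leaving out any of 5 libraries (WT_PBS replicates 1, 2 and 3 and WT_CRE replicates 1 and 2, adjusted p of 0.0536 to 0.0949). That of Rpl10 was lost for 4 (WT_PBS replicates 1 and 3 and WT_CRE replicates 1 and 2, 0.0514 to 0.0872) and that of Rpl3 for 4 (WT_PBS replicates 1, 2 and 3 and WT_CRE replicate 1, 0.0514 to 0.0654). Rpl7l1 lost its call without WT_PBS replicate 3 (0.29, adjusted p = 0.0611) and Rps4x without WT_CRE replicate 1 (0.51, adjusted p = 0.0512).

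Rpl39l, the testis-enriched copy of Rpl39, had only 3, 3 and 1 counts in WT_PBS, 0, 1 and 0 in CKO_PBS, 6, 10 and 3 in WT_CRE, with 9, 7 and 11 in CKO_CRE. The summed counts per library size were 32.9 times higher in CKO_CRE than in CKO_PBS (95% exact interval 5.42 to 1346, counting error only) and 2.91 times higher in WT_CRE than in WT_PBS (1.17 to 8.18). It was called in CKO (adjusted p = 0.00182) and not in WT (adjusted p = 0.0659), and its interaction had an adjusted p of 0.423. Rpl39 rose from 67.4 ± 4.46 to 113 ± 14.8 CPM in WT (log2 0.78 ± 0.18, adjusted p = 0.00315).

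In CKO lung fewer ribosomal protein genes passed the test for CRE. Of 81 tested genes 21 were higher and none lower in CKO_CRE than in CKO_PBS, which is 25.9% of them, against 20.6% of all tested genes higher and 18.5% lower. This share is near the background. At an unadjusted p below 0.05, 29 were higher and 0 lower, against 25.2% and 23.8%. The log2 fold change was above 0 for 79 and below 0 for 2, against 50.3% and 49.7%. The median log2 fold change was 0.35 against 0.00439 for all tested genes. The libraries did not overlap for 14 genes, all higher, against 24.1% of all tested genes higher and 24.6% lower.

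Beside Rps2, the called genes included Rpl35 (log2 0.72 ± 0.19, adjusted p = 0.0105), Rpl41 (0.70 ± 0.21, adjusted p = 0.0219) and Rpl27 (0.68 ± 0.19, adjusted p = 0.0133). Without CKO_CRE replicate 2, Rpl35 was at 0.40 (adjusted p = 0.0103) and Rpl41 at 0.34 (adjusted p = 0.0515), so that the call of Rpl41 was lost. It was also lost without any 1 of the CKO_PBS libraries (adjusted p of 0.0544 to 0.0634), and that of Rpl27 without CKO_PBS replicate 3 (0.60, adjusted p = 0.0578). All but Rpl39l of the 21 were also called in WT. Thus 95.2% of the CKO calls were WT calls, against 87.7% of all 81 genes. Of the WT calls 28.2% were CKO calls, against 25.9% of the 81, so both overlaps were near these shares. By subunit, 13 of 46 large-subunit, 7 of 32 small-subunit and 1 of 3 stalk genes were called in CKO. These shares are 28.3%, 21.9% and 33.3%, against 20.6% of all tested genes, and the difference between subunits was not tested.

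The CKO_CRE libraries differed widely among themselves. The median log2 level of the 77 genes against the WT_PBS mean was -0.16, 0.69 and 0.10 in CKO_CRE replicates 1, 2 and 3, and 0.79, 0.75 and 0.50 in the WT_CRE libraries. CKO_CRE replicate 2 was the highest of its group for all 77 genes, and replicate 1 the lowest for 75. Replicate 2 lay within the WT_CRE range for 69 of the 77. The numbers of the 77 genes above the highest WT_PBS library were 15, 76 and 47 in CKO_CRE replicates 1, 2 and 3. Of all 10740 genes at 10 CPM or more, 41.2%, 43.5% and 40.3% were. The ranks within the group were not counted over all genes. The CKO_CRE libraries also differed beyond these genes. The mean chi-square per gene between 2 libraries was 90, 26.7 and 57.8 for the CKO_CRE pairs. It was 4.7 to 6.14 in WT_PBS, 10.9 to 20.4 in CKO_PBS and 10.4 to 29.7 in WT_CRE. The value of 26.7, for CKO_CRE replicates 1 and 3, lay within the WT_CRE range. In CKO_PBS the medians were -0.16, 0.03 and -0.16.

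Without CKO_CRE replicate 1, 58 genes were called higher and none lower in CKO, against 22.9% and 20.4% of all tested genes, and the median was 0.51. Without replicate 2, the called genes were 7 higher (Rplp0, Rps2, Rpl11, Rpl28, Rpl27, Rpl35 and Rpl39l) and 1 lower (Rps3a1), against 15.7% and 14.2% of all tested genes, and the median was 0.08. Rps2 then rose by log2 0.57 ± 0.09 (adjusted p = 0.000767). Without CKO_PBS replicate 1, 6 were higher, against 16.5% of all tested genes, and without CKO_PBS replicate 3, 4 were, against 14.5%. With only the CKO libraries in the fit, 2 were higher (Rps2 and Rpl27), against 12.9%, and with sex as a covariate 8 were, against 17.3%. In these 4 fits and in that without CKO_CRE replicate 2, the share of the 81 genes called higher was below that of all tested genes.

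**Figure D3:**
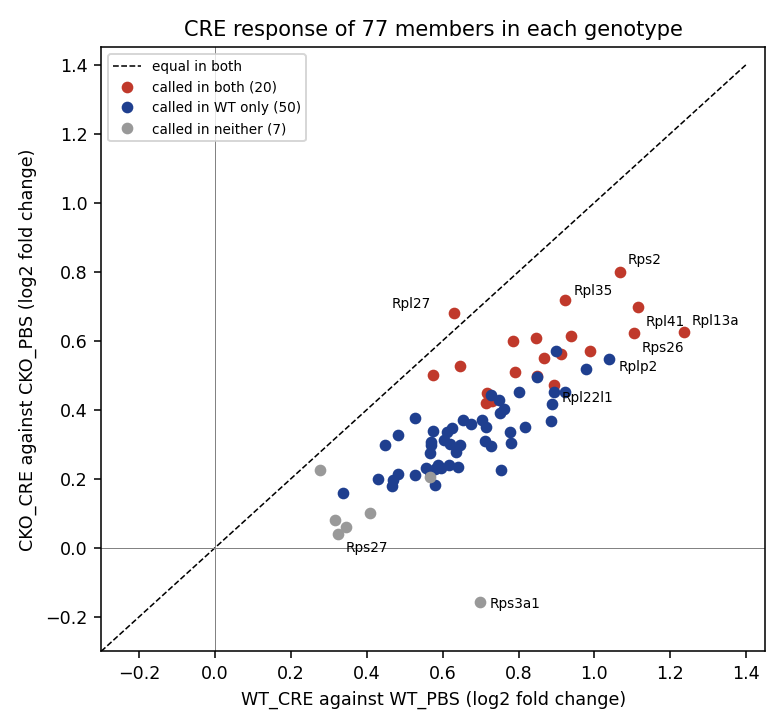
Log2 fold change under CRE of 77 ribosomal protein genes in WT (horizontal) and CKO (vertical) lung, each point a gene, coloured by the genotypes in which it was called. The dashed line marks equal change. Nearly all points lie below it, and Rps2, Rpl35 and Rpl41 are among the 20 called in both.

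The genotypes were then compared directly. Between CKO_CRE and WT_CRE none of the 81 genes was called by edgeR, against 0.549% of all tested genes higher and 0.366% lower. At an unadjusted p below 0.05, 49 were lower and 0 higher, against 7.5% and 11% of all tested genes. The smallest adjusted p was 0.129, for Rpl15, which was at 291 ± 10.4 CPM in WT_CRE and 201 ± 53.2 in CKO_CRE. The near-identical pseudogene copies of Rpl15 went the other way, with sums of 2.63 to 3.01 CPM in WT_CRE and 23.4 to 31.2 in CKO_CRE. The division of reads between Rpl15 and these copies was not tested, so the Rpl15 results in this comparison are uncertain. The DESeq2 Wald test called 2 lower, Rplp0 and Rpl15, against 1.72% of all tested genes lower and 3.07% higher, a share near the background. The median log2 difference was -0.41, and 79 of 81 genes were below 0 and 2 above, against 48.7% and 51.3% of all tested genes. The libraries did not overlap for 4 lower genes, Rpl24, Rplp0, Rps3a1 and Rpl15, and 1 higher, Rpl3l, against 6.74% and 8.32% of all tested genes.

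The difference between the CRE responses, tested as the interaction, was not called for any gene, with a smallest adjusted p of 0.423. Of all tested genes 0.0343% were called higher and 0.0114% lower. At an unadjusted p below 0.05, 1 was higher (Rpl39l) and 1 lower (Rpl24), against 6.02% and 4.29%, and DESeq2 called none. The response was smaller in CKO than in WT for 78 of 81 genes and larger for 3, against 49.3% and 50.7% of all tested genes, and the median difference was -0.32.

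Leaving out 1 library changed both of these results. Without CKO_CRE replicate 2, 74 genes were called lower and none higher in CKO_CRE than in WT_CRE, against 12.7% and 15.8% of all tested genes, with a median of -0.68. The interaction was then called lower for 63 and higher for none, against 6.11% and 8.72%, with a median of -0.60. Without CKO_CRE replicate 1 none was called between the CRE groups, against 0.84% higher and 0.284% lower, and the median was -0.23. None was called for the interaction either, against 0.117% and 0.0167%, with a median of -0.15. Without replicate 3 none was called in either comparison, against 0.2% higher and 0.139% lower between the CRE groups and 0% for the interaction, and 20 were called higher in CKO under CRE, against 19% higher and 17.2% lower. A limma-voom fit that weights libraries by their quality called 30 higher and 1 lower in CKO under CRE, against 23.4% and 22.4% of all tested genes. It called 75 lower and 1 higher (Rpl3l) between the CRE groups, against 20.8% and 23% of all tested genes. For the interaction it called 66 lower and 1 higher (Rpl39l), against 10.6% and 14.5%. The voom fit differs from the main one in both the method and the weights, and why its counts differ was not tested.

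Rps26 shows the spread library by library. It was at 188, 178 and 189 CPM in WT_PBS, 164, 207 and 183 in CKO_PBS, 398, 414 and 352 in WT_CRE, with 198, 412 and 235 in CKO_CRE. Replicate 2 of CKO_CRE stood among the WT_CRE libraries, and replicate 1 among the PBS libraries. The difference between the CRE groups was log2 -0.48 ± 0.22 with all libraries (adjusted p = 0.267), and -0.88 ± 0.12 without replicate 2 (adjusted p = 0.000393).

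Under PBS no ribosomal protein gene passed the test between genotypes. None of the 81 genes was called between CKO_PBS and WT_PBS by edgeR or DESeq2, against 0.0401% of all tested genes higher and 0.0687% lower, and the median log2 difference was -0.09. At an unadjusted p below 0.05, 1 was higher and 1 lower, against 2.87% and 2.45%. The difference was below 0 for 70 and above 0 for 11, against 49.3% and 50.7%. The libraries did not overlap for 12 lower genes and 1 higher, against 7.37% and 7.63% of all tested genes. The higher gene was Rplp1 (chromosome 9, 61913284 to 61914542), a stalk protein encoded on the same chromosome as Rhoa. Of the 6 ribosomal protein genes on chromosome 9, 2 had a log2 difference above 0 and 4 below 0, with a median of -0.05. Apart from Rplp1, 1 of the 6 did not overlap, in the lower direction.

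Rplp1 was at 349, 376 and 372 CPM in WT_PBS, 495, 490 and 426 in CKO_PBS, 671, 636 and 466 in WT_CRE, with 485, 711 and 520 in CKO_CRE. Every CKO_PBS library lay above every WT_PBS library, and the CRE groups overlapped. The log2 difference was 0.36 ± 0.16 between the PBS groups (adjusted p = 0.928). Between the CRE groups it was -0.07 ± 0.16 (adjusted p = 0.834), and it turned to 0.04 without WT_CRE replicate 1 and 0.05 without CKO_CRE replicate 1. Relative to the median of the 77 genes in each library, Rplp1 stood 0.57, 0.40 and 0.39 higher in CKO_PBS and 0.54, 0.31 and 0.42 higher in CKO_CRE on the log2 scale, and 0.13, 0.04 and -0.09 in WT_CRE. Departures in CKO were not particular to Rplp1. Rpl22l1 stood 0.14, 0.49 and 0.36 higher in CKO_PBS, 0.69, 0.21 and 0.58 in CKO_CRE, and 0.25, 0.12 and 0.17 in WT_CRE. Rps3a1, described next, departed downwards.

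Rps3a1 (chromosome 3, 86137940 to 86142702), a small-subunit protein, departed most from the other genes. It was at 500, 505 and 521 CPM in WT_PBS, 454, 90.6 and 265 in CKO_PBS, 855, 885 and 680 in WT_CRE, with 99.4, 503 and 108 in CKO_CRE. It stood 2.51 and 0.77 below the median of the 77 genes in CKO_PBS replicates 2 and 3, and 2.21, 0.67 and 2.32 below it in CKO_CRE, on the log2 scale, while in CKO_PBS replicate 1 and all WT libraries it stood between -0.03 and 0.04 of it. No contrast of Rps3a1 passed the main edgeR test. Between the CRE groups its log2 difference was -1.78 (adjusted p = 0.175) in that fit. It was called lower there by edgeR without the low-count filter (-1.77, adjusted p = 0.0221), by voom (-2.93, adjusted p = 6.18e-05) and without CKO_CRE replicate 2 (-2.99, adjusted p = 0.00109). Within CKO it was called lower under CRE by voom and without CKO_CRE replicate 2.

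Its near-identical pseudogene Rps3a3 was at 0.409 to 1.11 CPM in the WT libraries and CKO_PBS replicate 1. It was at 187 and 83.9 in CKO_PBS replicates 2 and 3, and 139, 154 and 171 in CKO_CRE. Rps3a2, another copy, was at 1.00 to 2.14 in the former and at 53.6, 23.0, 38.2, 32.6 and 42.3 in the latter. The copies were thus high in the 5 libraries in which Rps3a1 stood below the other genes. The rows of Rps3a1 and its 5 copies added up to 502, 508 and 524 CPM in WT_PBS, 457, 332 and 373 in CKO_PBS, 858, 889 and 683 in WT_CRE, with 277, 690 and 322 in CKO_CRE. How reads were divided between the rows was not tested.

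**Figure D4:**
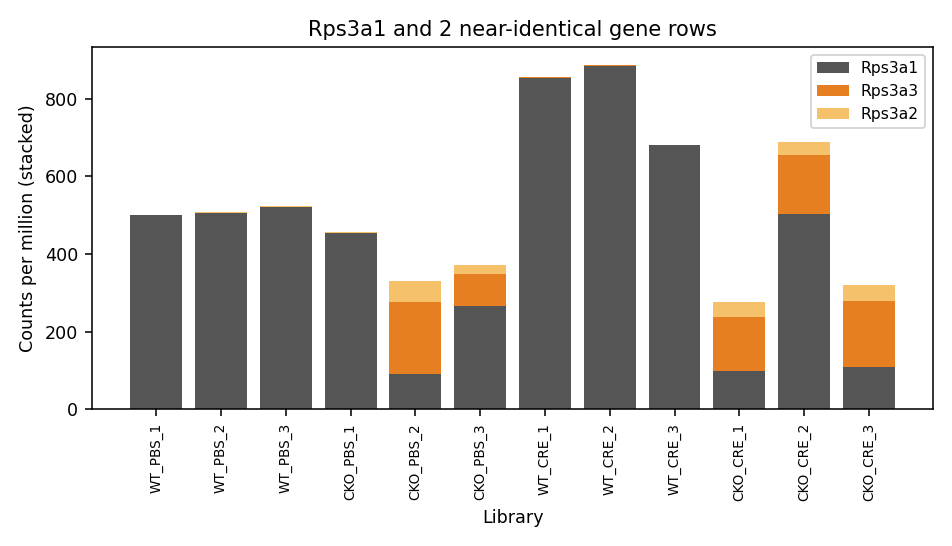
CPM of Rps3a1 and of the near-identical rows Rps3a3 and Rps3a2, stacked, in each of 12 libraries. Rps3a3 reaches 187 CPM in CKO_PBS replicate 2 and stays near 0 in all WT libraries and CKO_PBS replicate 1.

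Copies of other genes also differed by library. Gm10020, a copy of Rpl15, was at 7.24 and 7.79 CPM in CKO_PBS replicates 1 and 3 and at 19.6, 15.5 and 23.2 in CKO_CRE, and at 0 to 0.205 in the others. Gm6472, a copy of Rps7, was at 31.0 CPM in WT_CRE replicate 2, 16.4 and 37.1 in CKO_PBS replicates 1 and 2 and 17.9, 29.1 and 20.8 in CKO_CRE. Of the 61 ribosomal protein genes with a near-identical pseudogene, 56 were called higher in WT under CRE, as were 15 of the 20 tested genes without one. Only pseudogene rows were counted here. Among the 20, Rpl41, Rplp1 and Rplp2 have near-identical rows of other types, of which Gm10076 of Rpl41 was the highest. With each gene summed with its copies, 72 were called higher in WT and 22 in CKO, against 28.7% and 20.7% of all tested genes in that fit, so that the CKO count was again near the background.

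The rest of the translation machinery was read from lists of related genes. Of all tested genes 28.6% were called higher and 28.4% lower in WT, and 20.6% and 18.5% in CKO. Of 4 other cytoplasmic ribosomal proteins, 3 rose in WT and 2 in CKO. Fau, which encodes a small-subunit protein fused to a ubiquitin-like one, rose by log2 0.82 ± 0.18 in WT (adjusted p = 0.0022). Of 9 elongation and release factors 7 rose in WT and 2 in CKO, where the share of 22.2% was near that of all tested genes. Eef1b2, the exchange factor of eEF1A, rose from 173 ± 0.260 to 338 ± 44.7 CPM in WT. Of 28 initiation factors 16 rose and none fell in WT, with Eif4a1, the helicase that unwinds mRNA leaders, at 323 ± 5.11 and 605 ± 44.2 CPM. In CKO 8 rose and 3 fell.

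Of 28 ribosome biogenesis factors 24 rose in WT and 10 in CKO, with Nhp2, of the RNA pseudouridylation complex, at log2 1.35 and 1.19. Of 18 genes of RNA polymerase I and its factors, which make ribosomal RNA, 8 rose in WT and 3 in CKO. Of 19 genes with other TOP mRNAs, some of them also in the lists above, 12 rose in WT and 4 in CKO. Mitochondrial ribosomal proteins, which translate the mitochondrial genome, followed the same direction: 63 of 77 rose in WT and 41 in CKO, with medians of 0.62 and 0.40. The shares are to be read against 28.6% of all tested genes higher in WT and 20.6% in CKO. In CKO the share of the other TOP mRNAs, 21.1%, was near this background, and that of the RNA polymerase I genes, 16.7%, was below it.

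Of 20 growth control genes 4 were higher and 6 lower in WT, and 4 higher and 4 lower in CKO. These counts are near the shares of all tested genes, 28.6% higher and 28.4% lower in WT and 20.6% and 18.5% in CKO. Myc, a driver of ribosome production, rose from 12.1 ± 0.985 to 26.5 ± 2.08 CPM in WT (log2 1.17) and by 0.73 in CKO. Mtor fell from 73.9 ± 3.14 to 43.6 ± 7.06 CPM in WT (log2 -0.72), and Tsc2, an inhibitor of mTORC1, from 124 ± 3.54 to 77.6 ± 5.06. Between the CRE groups 1 gene was higher in CKO, Eif2ak2, the double-stranded RNA kinase, at 47.3 ± 3.97 in WT_CRE and 86.2 ± 26.004 in CKO_CRE. The biogenesis factor Rrs1 was the only one of the lists' genes called lower there, at 49.0 ± 4.91 and 29.4 ± 6.91 CPM.

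Some lists of markers of other cells followed the ribosomal protein genes across the CRE libraries in part, and others did not. The summed CPM of 6 B and plasma cell markers was 94.3 to 147 in the PBS libraries, 548 to 690 in WT_CRE, with 159, 619 and 477 in CKO_CRE replicates 1, 2 and 3. That of 7 T cell markers was 69.0 to 127, 187 to 233 and 90.8, 181 and 170. All 6 B and plasma cell markers and 6 of 7 T cell markers rose in WT, against 28.6% of all tested genes. In CKO 3 and 1 rose, against 20.6%, so that the T cell share of 14.3% was below that of all tested genes. CKO_CRE replicate 1 was thus the lowest CRE library for lymphocyte markers as well as for the ribosomal protein genes. This was not particular to lymphocytes. By summed CPM, the same CRE library was the lowest for macrophage and proliferation markers, mitochondrial ribosomal proteins and ribosome biogenesis factors. It was the highest for the sum of 6 lung tissue markers, which does not speak for each of them. Between CKO_CRE and WT_CRE 4 of these 6 were above 0 and 2 below, against 51.3% and 48.7% of all tested genes, and none was called. In CKO_CRE replicate 3 the log2 ratios of the B and plasma cell and T cell sums to their WT_PBS means were 2.05 and 0.92, against 2.25 to 2.59 and 1.06 to 1.37 in WT_CRE, while that of the ribosomal protein genes was 0.10 against 0.47 to 0.73. The erythroid sum stood at 2.14, 1.18 and -0.53 in the WT_CRE libraries and the eosinophil and neutrophil sum at 1.99 in CKO_PBS replicate 2 and 0.71 in CKO_CRE replicate 3, apart from the order of the ribosomal protein genes.

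Macrophage and proliferation markers rose in both genotypes, 6 of 6 and 10 of 10 in each, against the same shares of all tested genes. Their sums were 1773 to 2015 and 759 to 870 CPM in WT_CRE, and 1087, 2170 and 1457 and 535, 871 and 591 in CKO_CRE. The sum of 7 cardiac muscle markers, which are expressed in pulmonary veins, was 402, 266.5 and 384 CPM in WT_PBS. It was 538, 363 and 523 in CKO_PBS, 170 to 183 in WT_CRE, and 339, 185 and 372 in CKO_CRE. Among the CKO_CRE libraries it was lowest in replicate 2. The part of cell makeup in the ribosomal protein result was not tested.

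**Figure D5:**
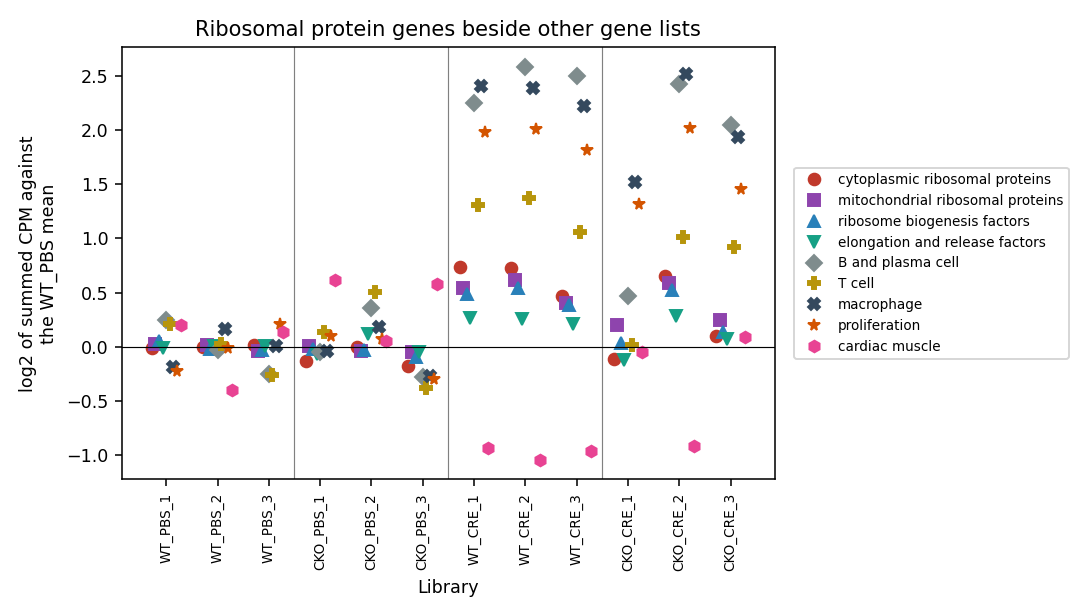
Log2 of the summed CPM of each gene list against its WT_PBS mean, in 12 libraries, with one symbol per list. In CKO_CRE replicate 2 the ribosomal protein sum stands at 0.66, near the WT_CRE libraries at 0.73, 0.73 and 0.47, with lymphocyte and macrophage markers, and in replicate 1 it stands at -0.11.

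Within the 77 genes the rise in WT was slightly larger for genes of low level and short coding length. Spearman's rho of the log2 fold change with the WT_PBS level was -0.29 and with coding length -0.24, both across genes that share libraries and are not independent. The PBS level is also the base of the fold change, so these values are not independent of each other. In CKO rho was -0.19 with the CKO_PBS level and -0.17 with coding length. Rps16 departed least from the median of the 77 genes, by at most 0.05 on the log2 scale in any library. Rps2 stood 0.31 to 0.47 higher in WT_CRE and 0.48 to 0.63 higher in CKO_CRE than in WT_PBS on this scale.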

How the data were processed

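RNA of lung from 12 libraries was analysed from 1 deposited table of read counts per gene. The deposited values are whole-number counts and were taken as raw. Per the submitters' processing notes, reads went through fastp and STAR against mm10, and no version is named. What counted the reads, with which strand setting and which rule for reads that match several places, is not given in the sources used here. All 12 columns were used. Symbols, positions and coding lengths came from GENCODE M21 (GRCm38).

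The quasi-likelihood F test of edgeR 4.0.16, run in R 4.3.3, used TMM scaling, the filterByExpr filter and 1 mean for each of the 4 groups. P-values were adjusted by Benjamini-Hochberg over the 17473 genes that passed the filter, and calls were made at 0.05. The 5 contrasts were the CRE effect in WT, the CRE effect in CKO, the genotype effect with PBS, that with CRE, and the interaction. CPM are counts scaled to the library total, as mean ± SD of 3 libraries. Log2 fold changes are given ± SE. Levels per library are log2 of counts scaled to library size and TMM factor with 0.5 CPM added. Near-identical copies were found with blastn 2.17.0 at 98% or more over at least 200 bases, among 222 pseudogene rows for 61 genes. Exonic bases of 27 genes are shared with a same-strand gene and those of 19 with an opposite-strand gene, and these values are uncertain. The fit was tested on simulated counts with known changes in WT_CRE and the same spread for every gene and library. That setting does not cover the wide spread of the CKO_CRE libraries.

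The genes, lists and tests were chosen with earlier results of these data known. Named among the ribosomal protein genes were, per contrast, up to 6 called genes with the largest rise and 6 with the largest fall (the higher group averaging 1 CPM or more), any gene called in the PBS genotype contrast or the interaction, paralog pairs, and a set of well-studied genes. From other lists up to 2 rising and 2 falling called genes were named. Rps3a1, Rps3a2, Rps3a3, Rpl15, Rpl28, Rps16, Gm10020, Gm6472 and Gm10076, and uncalled genes named from counts, were chosen after their values were seen. Alternatives were DESeq2 1.42.0 size factors and Wald test, limma 3.58.1 voom with quality weights, TMM without the ribosomal protein genes, no count filter, a replicate block, only the groups compared, sex as a covariate, summing copies, and each library left out. Promoter sequences came from the RefSeq table (GRCm38.p6).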

Additional observations from a re-analysis of the deposited data

Results flagged for a closer look

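Rpl24 was singled out because every WT_CRE library lay above the WT_PBS mean and every CKO_CRE library below the CKO_PBS mean. The difference of the CRE effects was -1.28 ± 0.50 on the log2 scale and did not pass the interaction test (adjusted p = 0.43). The gene had only 7 to 20 counts per library, with 0.502 ± 0.126 CPM in WT_PBS, 1.01 ± 0.23 in WT_CRE, 0.774 ± 0.176 in CKO_PBS and 0.653 ± 0.0827 in CKO_CRE. It was called higher in WT_CRE than in WT_PBS (log2 1.04 ± 0.35, adjusted p = 0.0245), a call lost without WT_PBS replicate 1 or 2 or WT_CRE replicate 1 or 3 (0.84 to 1.12, adjusted p of 0.051 to 0.105).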

How the results depend on the processing

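In WT, leaving out 1 library at a time gave 57 to 76 higher genes and medians of 0.61 to 0.75, and sex as a covariate a median of 0.57. In CKO these ranges were 4 to 58 higher, 0 to 1 lower and 0.08 to 0.51. Higher counts in CKO were 2 with only the groups compared and 8 with sex as a covariate, and voom with quality weights called 1 lower. Between the CRE groups the ranges were 0 to 74 lower and -0.68 to -0.23. DESeq2 and the fit without a low-count filter each called 2 lower there, Rpl15 with Rplp0 or with Rps3a1, and voom 75 lower and 1 higher. For the interaction the ranges were 0 to 63 lower and -0.60 to -0.15, with 66 lower and 1 higher by voom. The interaction needs all 4 groups, so the fits with only the groups compared hold no separate value for it. Under PBS the median ran from -0.16 to -0.05. Without mitochondrially encoded genes the WT_PBS share was 2.23%. For Rplp1 between the CRE groups the range was -0.27 to 0.05, with 0.04 without WT_CRE replicate 1 and 0.053 without CKO_CRE replicate 1. Causes were not tested. With the replicate number as a block, 72 genes were higher in WT and 22 in CKO, and no other count moved. Same-numbered libraries correlated at -0.02 to 0.24, so the numbers were not taken as pairs. Scaling by DESeq2 size factors, or by TMM without these genes, left the counts at 71 and 21.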
